A study of Macaca mulatta with 24 samples.

Results

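Transcripts of complement components, complement receptors and the C1 inhibitor gene SERPING1 were followed in the blood of irradiated rhesus macaques. The 10 genes looked for were SERPING1, C2, C3, CFB, CFD, CFP, C3AR1, C5AR1, CR1 and CD55, and a probe was taken as theirs when the array's own annotation carried the symbol. This gave 11 probes of 7 genes among 15258 gene symbols on the array. C2, CFB and CR1 had no probe by this rule and are not analysed here under their symbols. All 7 remaining genes had a probe that passed the filter on dim signal, with 8 of the 11 probes tested. SERPING1 and C3 had 3 probes each and the other genes 1, and the brightest probe over the 24 arrays speaks for a gene.

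Whole blood of adult rhesus macaques of Chinese origin was drawn before irradiation and on day 3, day 5 and day 7 after a total body dose of 4 Gy, with no other treatment named, and every irradiated group consists of animals that also gave pre-irradiation blood. For the radiation the labels say X-rays and the methods gamma rays from a cobalt source, and the control blood is put on day 0 by the labels and some days earlier by the methods. RNA from 7 animals, 4 labelled male and 3 labelled female, was measured on 24 one-colour arrays: 7 pre-irradiation, 4 on day 3, 6 on day 5 and 7 on day 7. Replicate numbers stand for animals, and animals 3, 5 and 6 had no day 3 array and animal 5 no day 5 array. Blood RNA was depleted of globin transcripts, and in such bulk samples fewer cells of a type and less RNA per cell cannot be told apart.

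Complement is a cascade of plasma proteins that is triggered by antibodies, by sugars on microbes or by its own slow turnover, and every route leads to the cleavage of C3. Most of its soluble proteins are made in the liver, while leukocytes make some of them, properdin above all, and carry the receptors for its fragments. C1 inhibitor, the product of SERPING1, is a serine protease inhibitor that holds back the first enzymes of the classical and lectin routes and the kallikrein system, and its gene is known to be induced by interferons.

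The levels below are log2 of the background-subtracted, normalized signal of a probe, so that a difference of 1 is a doubling, and they can be compared between arrays but not between probes. The threshold for calling a change was an adjusted p of 0.005 (limma, Benjamini-Hochberg over all probes tested). From 48.3 to 61.2% of probes were well above background on the single arrays, no spot of these genes was saturated, and precision is limited by how many arrays there are. The arrays lay on 6 slides scanned in 2 sessions. The first session held 6 pre-irradiation and 6 day 7 arrays, and the second held 1 pre-irradiation array with all day 3 and day 5 arrays and 1 day 7 array. At days 3 and 5 a fit with the session as a block therefore rests on the pre-irradiation array of animal 5 alone.

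Defining markers of blood cells were measured, and 13.5, 16.7 and 10.9% of all probes tested were called on days 3, 5 and 7. Of the erythroid list 8 of 10 genes tested were lower on day 3, 9 on day 5 and 8 on day 7, and of the 9 B cell genes tested 9, 9 and 8 were lower. All 9 platelet genes were higher on day 3, 3 (CLU, ITGA2B and TREML1) on day 5 and 0 on day 7 (limma). Of 8 T cell genes 3 and 2 were lower on days 3 and 5 and 0 on day 7. On day 7, 2 platelet genes (GP1BA, and GP9 at -0.74) and 3 T cell genes (CD4 at 0.70, IL7R at -0.73 and CCR7 at -1.25) had an unadjusted p under 0.05. Of all probes 39.5% did, and the signs of the T cell genes differed. GP1BA was well above background on 0 of 7 pre-irradiation and 1 of 7 day 7 arrays, so its day 7 change is not given. Of the 8 monocyte genes tested 2, 2 and 1 were higher on the 3 days, and of the 8 neutrophil genes CSF3R was higher on days 3 and 5 and ELANE lower on days 5 and 7, so the monocyte count on day 7 and the neutrophil counts on days 3 and 7 (1 of 8 each) are near the share of all probes. Of the plasma protein genes that mark hepatocytes, ALB, APOB, TF, AHSG and TTR were too dim to be tested and the tested genes disagreed. FGB, the fibrinogen beta chain, was well above background on all 7 pre-irradiation arrays and on none after irradiation, and was at least 10.2-, 11.7- and 9.73-fold lower on days 3, 5 and 7 (adjusted p = 3.52e-06, 1.51e-07 and 9.56e-06). SERPINA1, the alpha-1-antitrypsin gene, had log2 changes of 1.58, 1.34 and 0.74 and was not called. Such at-least folds set the brighter group's mean against a bound, for which each array of the dimmer group entered with the probe's signal or with the lowest signal well above background there, whichever was higher.

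The probes below are shown because the results turn on them or because their letters and position read as coding sequence, which was not checked against an annotation. Positions are those of the array design, whose scanner header names the build rheMac2, and they were not checked against a genome. Each SERPING1 probe has at least 1 forward reading frame with no stop codon, and 1 frame of the CFP probe runs open to a closing stop codon, marked in capitals.
SERPING1, transcript position 709, minus strand of chr14:15815615-15815674: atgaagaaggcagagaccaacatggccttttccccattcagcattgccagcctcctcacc
SERPING1, transcript position 1201, minus strand of chr14:15809580-15809639: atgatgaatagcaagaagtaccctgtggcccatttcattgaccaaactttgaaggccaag
CFP, transcript position 1350, minus strand of chrX:45449324-45449383: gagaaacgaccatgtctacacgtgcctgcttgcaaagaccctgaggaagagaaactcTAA
The brightest SERPING1 probe starts at transcript position 1919 (chr14:15800348-15800407) and ends in AATAAA, the usual polyadenylation signal, so it reads the end of the message. The C3AR1 probe lies at chr11:8430954-8431013 on the minus strand, and the C5AR1 probe at chr19:53650834-53650893 and the CFD probe at chr19:600009-600068 on the plus strand.

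Against pre-irradiation blood, 2 of the 7 genes were called on day 3 (C3AR1 and CFP, both higher), where 13.5% of all 27132 probes tested were called. At day 5 the count was 3 (SERPING1 and C3AR1 higher, C5AR1 lower) against 16.7% of 27138 probes. At day 7 it was 1 (C5AR1, lower) against 10.9% of probes. C3, CFD and CD55 were not called on any day. The median log2 change of the 7 genes was 1.06, 0.71 and 0.16 on the 3 days, and that of all probes tested was 0.02 on each. With the animal as a block the count was 1 on day 3 (C3AR1), 4 on day 5 (C3AR1, C5AR1, CFD and CFP, without SERPING1) and 2 on day 7 (C3AR1 and C5AR1). Of all probes 760 of 27062, 4202 of 27107 and 2327 of 27128 were called in these fits. Without the block 3653, 4543 and 2951 were called. With another background correction, normexp, the count of members was 1 on day 3 (C3AR1) and 0 on days 5 and 7. Far fewer of all probes were called there as well (139, 239 and 315 on the 3 days).

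**Figure D1:**
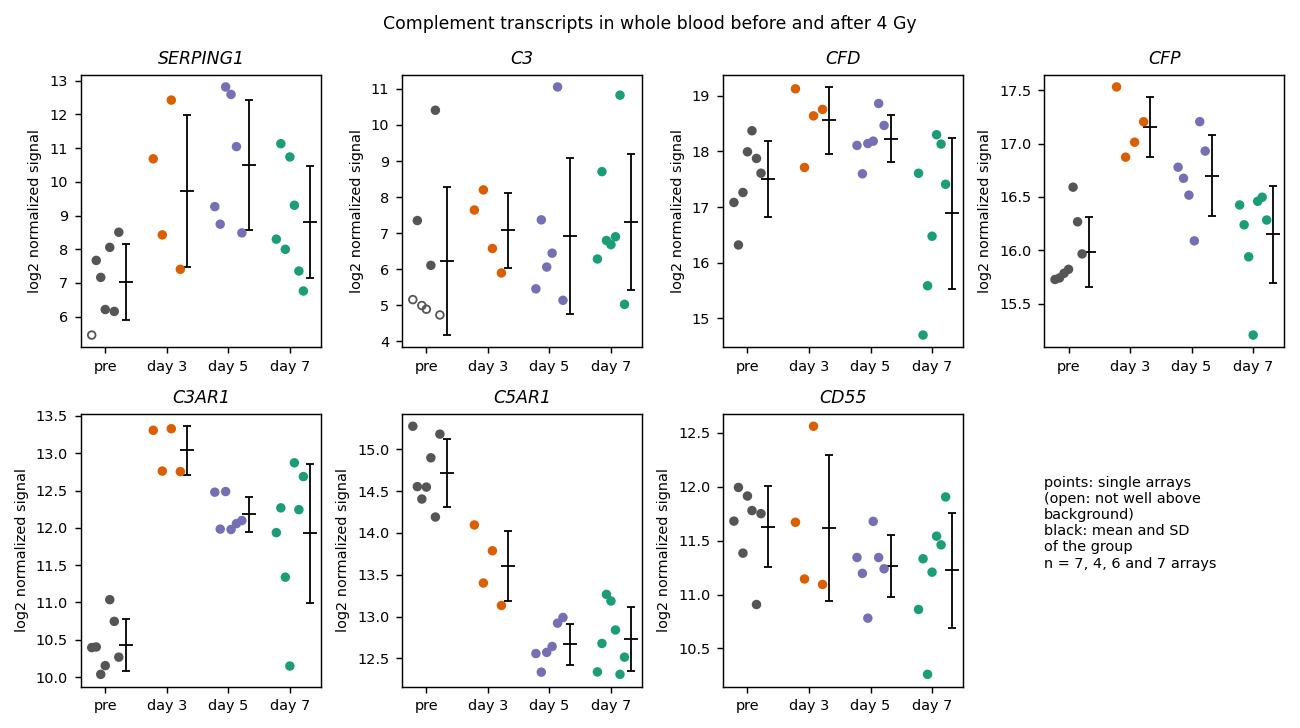
Log2 normalized signal of the brightest probe of each gene (vertical axes) in blood taken before irradiation (pre) and on the 3 days after it, with 1 point per array, open where the probe was not well above background, and the mean and SD of each group in black. The C3AR1 points on day 3 lie between 12.75 and 13.33, all above the pre-irradiation points, and all C5AR1 points after irradiation lie below the pre-irradiation points.

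SERPING1 varied widely between animals. Before irradiation its log2 level was 5.46, 7.67, 7.17, 6.21, 8.06, 6.16 and 8.50 in animals 1 to 7, and 6 of the 7 arrays were well above background. At day 3 it was 10.68, 8.43, 12.42 and 7.41 in animals 1, 2, 4 and 7. Animals 1 and 4 stood above every pre-irradiation array and the other two overlapped with them. At day 5 the levels were 9.26, 8.74, 12.81, 12.59, 11.04 and 8.48 in animals 1, 2, 3, 4, 6 and 7, so that 5 of 6 arrays exceeded the pre-irradiation maximum. At day 7 they were 8.30, 11.13, 8.00, 10.74, 9.30, 7.36 and 6.76 in animals 1 to 7, with 3 of 7 arrays above the pre-irradiation range.

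The mean of SERPING1 rose by 3.46 ± 0.77 (SE) on the log2 scale on day 5, which is 11.0-fold (adjusted p = 0.00348, limma). The change was 2.70 ± 0.87 on day 3 (adjusted p = 0.0313) and 1.77 ± 0.68 on day 7 (adjusted p = 0.0660), and neither was called. The day 3 change was 1.67 without animal 4, 3.72 without animal 7 and 1.68 with the scan session as a block. The day 5 call did not pass the threshold with the animal as a block (3.63 ± 0.84, adjusted p = 0.0107), with the scan session as a block (2.43, adjusted p = 0.381), with a normexp background (2.19, adjusted p = 0.0507), with no filter on dim probes (adjusted p = 0.00529) or without animal 1, 3, 4 or 6, where the change was 2.90 to 3.44. Against its own pre-irradiation level, SERPING1 was higher in 3 of 4 animals on day 3, 5 of 6 on day 5 and 6 of 7 on day 7. On this probe, the brightest, animal 7 was the exception on each day, with changes of -1.10, -0.02 and -1.74. Animal 4 was 6.21, 6.38 and 4.52 above its own pre-irradiation level on the 3 days.

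The other tested SERPING1 probe, the coding probe at position 1201, was well above background on 1 of 7 pre-irradiation arrays, 3 of 4 on day 3, 5 of 6 on day 5 and 7 of 7 on day 7. Its log2 changes were 1.88, 2.51 and 1.45 on the 3 days, with adjusted p of 0.0832, 0.0117 and 0.0333, so it was not called. On this probe 3 of 4, 6 of 6 and 5 of 7 animals were above their own pre-irradiation signal, and animal 7 was at -0.20, 0.39 and -0.16. The probes disagreed in animal 1, whose pre-irradiation signal was the only one well above background here and the only one not well above background on the brightest probe. Its changes were 1.04, 0.43 and -0.31 on the coding probe and 5.22, 3.81 and 2.84 on the brightest. The coding probe at position 709 was well above background on 1 day 3 array and 2 day 5 arrays and on none of the others, and was not tested.

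**Figure D2:**
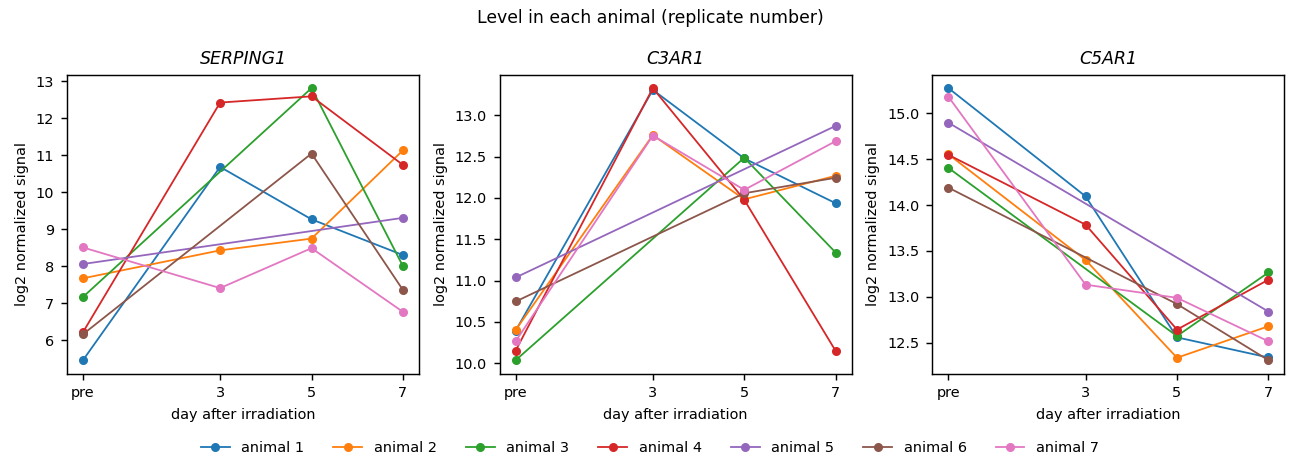
Log2 normalized signal of SERPING1, C3AR1 and C5AR1 (vertical axes) against the day after irradiation (horizontal axis, with pre-irradiation blood at the left), with 1 line per animal. The SERPING1 lines spread from 6.76 to 12.81 after irradiation and animal 7 stays at or below its own starting level, whereas every C5AR1 point after irradiation lies below the start of its line.

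Interferon-stimulated genes were set beside SERPING1 as a list of 49, of which 42 were tested. Of these 1 was called on day 3, 6 on day 5 (all higher) and 0 on day 7 (limma), on each day a smaller share than the 13.5, 16.7 and 10.9% of all probes that were called. On day 7, 10 had an unadjusted p under 0.05, 4 with a positive change and 6 with a negative one, where 39.5% of all probes reached that level. Their median log2 change was 1.12, 1.28 and 0.22 on the 3 days. The called genes with the largest changes were WARS, a tryptophanyl-tRNA synthetase, on day 3 (2.39 ± 0.49, adjusted p = 0.00338) and on day 5 CXCL10, a chemokine (2.99 ± 0.66, adjusted p = 0.00380), WARS (2.06 ± 0.44, adjusted p = 0.00285) and PARP9 (1.46 ± 0.28, adjusted p = 0.00123).

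The mean log2 level of the interferon list was 10.75 to 12.23 before irradiation, 11.52 to 13.51 on day 3, 11.30 to 13.70 on day 5 and 11.10 to 12.54 on day 7. Animals 1 and 4, with high SERPING1 on day 3, had list levels of 13.51 and 13.34 on that day, and animals 2 and 7 had 11.52 and 11.77. At day 5 animal 6 had a SERPING1 level of 11.04 with the lowest list level of that day, 11.30, and animal 7 had the pre-irradiation SERPING1 range with a list level of 12.91. Over the 24 arrays of 7 animals the Pearson r of SERPING1 with the list level was 0.59, given as a description, since arrays share animals. The part of these genes in the SERPING1 levels was not tested.

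C3AR1 encodes the receptor for the anaphylatoxin C3a and is known on myeloid cells. Its log2 level was 10.40, 10.40, 10.04, 10.15, 11.04, 10.75 and 10.27 in animals 1 to 7 before irradiation. At day 3 it was 13.31, 12.76, 13.33 and 12.75 in animals 1, 2, 4 and 7, and on day 5 it was 12.48, 11.98, 12.49, 11.98, 12.06 and 12.10 in animals 1, 2, 3, 4, 6 and 7. Neither group overlapped with the pre-irradiation arrays. At day 7 the levels were 11.94, 12.27, 11.34, 10.15, 12.87, 12.24 and 12.69, and animal 4 alone had returned to the pre-irradiation range.

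C3AR1 was 6.07-fold higher on day 3 (log2 change 2.60 ± 0.22 SE, adjusted p = 2.20e-05) and 3.35-fold on day 5 (1.74 ± 0.18, adjusted p = 1.05e-05). At day 7 the change was 1.49 ± 0.35 (adjusted p = 0.00571), just outside the threshold. Without animal 4 it was 1.74 (adjusted p = 0.000472), and with the animal as a block 1.49 (adjusted p = 0.00308). With the scan session as a block C3AR1 was 2.0 on day 3 (adjusted p = 0.0148) and 1.14 on day 5 (adjusted p = 0.0385), which ended both calls. The day 3 call was also lost with the slide as a block (adjusted p = 0.0531), where 0 of all 27110 probes were called. The day 5 call was also lost with a normexp background (1.14, adjusted p = 0.104).

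C5AR1 encodes the receptor for C5a, which draws neutrophils and monocytes to sites of complement activation. Its log2 level was 15.27, 14.55, 14.40, 14.55, 14.90, 14.19 and 15.18 in animals 1 to 7 before irradiation and 14.09, 13.40, 13.79 and 13.13 in animals 1, 2, 4 and 7 on day 3. It was 12.56, 12.34, 12.57, 12.64, 12.92 and 12.99 in animals 1, 2, 3, 4, 6 and 7 on day 5 and 12.34, 12.68, 13.27, 13.19, 12.84, 12.31 and 12.52 in animals 1 to 7 on day 7. Every array after irradiation lay below every pre-irradiation array, and every animal was below its own pre-irradiation level on each day it was sampled.

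C5AR1 fell by 2.05 on the log2 scale on day 5 (SE 0.20, 4.14-fold lower, adjusted p = 5.67e-06) and by 1.99 on day 7 (SE 0.21, 3.97-fold lower, adjusted p = 2.00e-05). The day 3 change was -1.12 ± 0.25 (adjusted p = 0.00579) and was not called, but it was called with the stricter filter on dim probes (adjusted p = 0.00401), with all groups in 1 fit (adjusted p = 0.000949) and without animal 6 (-1.21, adjusted p = 0.00436). Over 18 choices of processing and fit the day 3 change was called in these 3 only, and its adjusted p from limma reached 0.223. Within the first scan session alone, with 6 arrays in each group, the day 7 change was -1.98 (adjusted p = 0.000190), and on day 5 with the session as a block it was -2.23 (adjusted p = 0.00495). With a normexp background the changes were -2.44 (adjusted p = 0.0102) and -1.79 (adjusted p = 0.00885) on days 5 and 7, outside the threshold.

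The 3 genes whose level was most like that of C5AR1 over the 24 arrays were TBC1D17, a GTPase-activating protein gene (Pearson r = 0.99), TAL1, a transcription factor of erythroid and stem cells (r = 0.99), and PRSS22, a serine protease gene (r = 0.99). After the group means were taken out these were 0.96, 0.91 and 0.90. The mean log2 level of the 10 erythroid genes was 13.53 to 14.93 before irradiation, 10.61 to 12.11 on day 3, 8.47 to 9.29 on day 5 and 7.74 to 12.63 on day 7, and its r with C5AR1 was 0.86. These genes include HBA1 and HBB, although the RNA had been depleted of globin transcripts, which limits what those levels can show. The 8 neutrophil genes had a mean level of 9.47 to 10.89 before irradiation, 9.81 to 11.16 on day 3, 9.64 to 10.90 on day 5 and 9.22 to 11.12 on day 7. Its r with C5AR1 was -0.06. This mean covers genes that went both ways, as on day 5 CSF3R was at 1.82 and ELANE at -2.27, both called. The 8 monocyte genes had a mean level of 11.63 to 12.39 before irradiation, 12.68 to 13.04 on day 3, 12.50 to 13.02 on day 5 and 12.20 to 13.29 on day 7. The r of this monocyte level was -0.68 with C5AR1 and 0.80 with C3AR1. C3AR1 also had an r of -0.77 with the T cell, -0.68 with the erythroid, 0.58 with the platelet and 0.50 with the neutrophil level. Group means were not taken out of these list values. The part of these cells in the levels of either receptor was not tested.

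**Figure D3:**
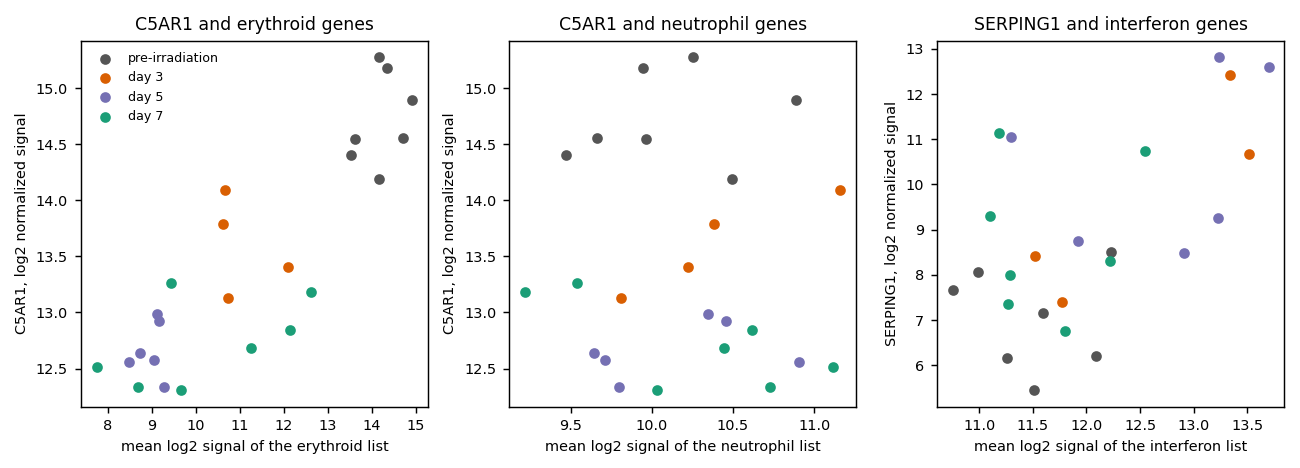
Log2 normalized signal of C5AR1 against the mean log2 signal of the erythroid list and of the neutrophil list, and of SERPING1 against that of the interferon list, with 1 point per array and the groups in colour. The pre-irradiation arrays sit apart at high C5AR1 and erythroid levels (13.53 to 14.93), while the neutrophil levels of the groups overlap.

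CFP encodes properdin, which stabilizes the C3-cleaving enzyme of the alternative route and is made by leukocytes. Its log2 level ran from 15.73 to 16.59 before irradiation and was 17.53, 16.87, 17.01 and 17.21 in animals 1, 2, 4 and 7 on day 3, with no overlap. It ran from 16.09 to 17.21 on day 5, where 4 of 6 arrays exceeded the pre-irradiation maximum, and from 15.20 to 16.50 on day 7, where none did. CFP was 2.25-fold higher on day 3 (log2 change 1.17 ± 0.21, adjusted p = 0.00163). The change was 0.71 ± 0.20 on day 5 (adjusted p = 0.0131) and 0.16 ± 0.22 on day 7 (adjusted p = 0.604). Over 19 choices of processing and fit the day 7 change ran from 0.08 to 0.88 and was called in 0.

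The day 3 call of CFP was lost with the animal as a block (1.34 ± 0.21, adjusted p = 0.00802), with the scan session (0.56, adjusted p = 0.323) or the slide (0.52, adjusted p = 0.501) as a block, with a normexp background (1.11, adjusted p = 0.230) and without animal 1, 2, 4 or 7 (1.0 to 1.22). At day 5 the animal block gave a called rise of 0.82 (adjusted p = 0.00403), as did leaving out animal 5, whose only array in this comparison was that before irradiation (0.82, adjusted p = 0.00489), and quantile normalization (1.17, adjusted p = 0.000660). With the scan session as a block the day 5 change was 0.11 (adjusted p = 0.897) and with a normexp background 0.15 (adjusted p = 0.835). The genes most like CFP were PILRA, an inhibitory receptor of myeloid cells (r = 0.92), RHOG, a small GTPase (0.91), and APLP2 (0.91). C3AR1 itself was most like ITGB2, the shared chain of the leukocyte integrins (0.92), HGSNAT (0.91) and NACC2 (0.91), and its r with CFP was 0.81. After the group means were taken out, C3AR1 had an r of 0.61 with ITGB2, 0.83 with HGSNAT and 0.68 with NACC2.

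CFD encodes factor D, the protease that cleaves factor B. Its log2 level was 17.08, 16.32, 17.26, 17.99, 18.37, 17.87 and 17.61 in animals 1 to 7 before irradiation, 17.71 to 19.13 on day 3 and 17.60 to 18.86 on day 5. At day 7 it was 17.61, 14.70, 15.58, 16.48, 18.30, 18.13 and 17.41, the widest spread of any day. The log2 changes were 1.06 ± 0.38, 0.73 ± 0.30 and -0.61 ± 0.52 on the 3 days, with adjusted p of 0.0453, 0.0753 and 0.405. Over 18 choices of processing and fit the day 3 change ran from 0.19 to 1.31 and was called in 0. CFD was above its own pre-irradiation level in 4 of 4 animals on day 3 and 6 of 6 on day 5, and below it in 5 of 7 on day 7. With the animal as a block the day 5 change was 0.87 ± 0.16 and was called (adjusted p = 0.00478), and with the scan session as a block it was -0.14 (adjusted p = 0.913). The day 7 value turned to 0.23 under quantile normalization.

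C3, the central component, was dim in blood. Its only tested probe was well above background on 3 of 7 pre-irradiation arrays and on every array after irradiation. Animal 6 stood apart with levels of 10.41 before irradiation, 11.06 on day 5 and 10.83 on day 7, while the other animals lay between 4.73 and 8.71. Each animal gave a higher signal than in its own pre-irradiation blood on each day, but that blood was not well above background in animals 1, 3, 4 and 7. In animal 2, where it was, the differences were 0.85, 0.02 and 1.36 on days 3, 5 and 7, in animal 6 they were 0.65 and 0.42 on days 5 and 7, and in animal 5 the day 7 difference was 0.79. Across groups the changes were 0.84 ± 0.98, 0.69 ± 1.05 and 1.08 ± 0.95, with adjusted p of 0.522, 0.644 and 0.421. The day 3 change was 0.48 without animal 1, 1.54 without animal 6, 0.13 with the slide as a block and 1.55 ± 0.30 with the animal as a block (adjusted p = 0.0143), and the animal block did not bring a call on any day. The other C3 probes were well above background on 1 and 2 of the 24 arrays and were not tested. The signal of the first of these, at transcript position 2487, was lower than before irradiation in every animal on each day, with its only array well above background being the pre-irradiation array of animal 2.

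CD55 encodes decay-accelerating factor, which takes apart the C3-cleaving enzymes on a cell's own surface. Its log2 level ran from 10.91 to 11.99 before irradiation, 11.09 to 12.56 on day 3, 10.78 to 11.68 on day 5 and 10.26 to 11.91 on day 7, and the groups overlapped on each day. The log2 changes were -0.01 ± 0.29, -0.37 ± 0.19 and -0.41 ± 0.24, with adjusted p of 0.977, 0.157 and 0.228.

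**Figure D4:**
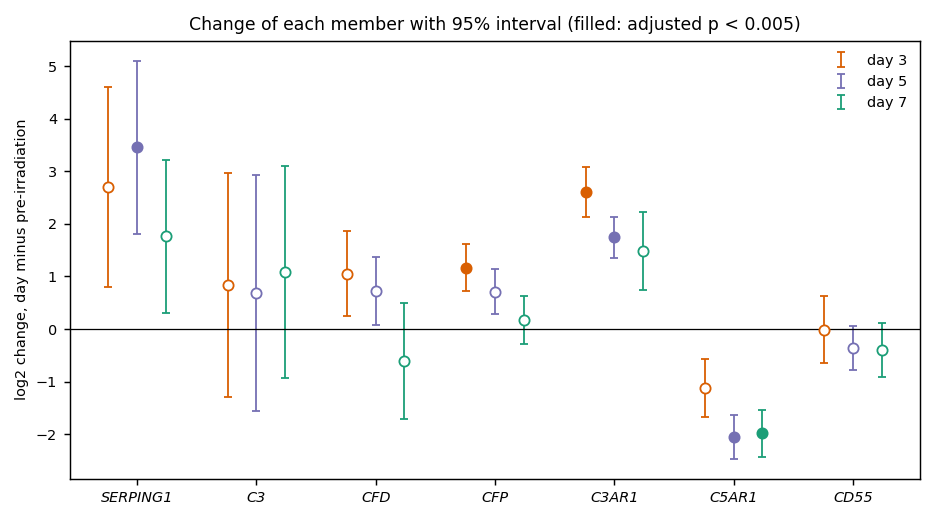
Log2 change of each gene (vertical axis, day minus pre-irradiation) with its 95% interval from limma on days 3, 5 and 7, filled where the adjusted p was under 0.005. C3AR1 and C5AR1 lie on opposite sides of 0, and the intervals of SERPING1 and C3 are the widest.

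Between days, limma called 0 of the 7 genes. At an unadjusted p under 0.05 there were 2 genes between days 3 and 5 (C3AR1 and C5AR1), 4 between days 3 and 7 (CFD, CFP, C3AR1 and C5AR1) and 2 between days 5 and 7 (CFD and CFP), where 10, 32.7 and 20.8% of all probes reached that level and 0.0184, 1.28 and 0.00368% were called. The order of group means for C3AR1 was day 3, day 5, day 7 and pre-irradiation, and for C5AR1 pre-irradiation, day 3, day 7 and day 5. CFP was 1.01 ± 0.26 lower on day 7 than on day 3 on the log2 scale (adjusted p = 0.0250) and C5AR1 0.87 ± 0.26 lower (adjusted p = 0.0394). SERPING1 differed by 0.76 ± 1.15 between days 5 and 3 (adjusted p = 0.857) and by -1.69 ± 0.89 between days 7 and 5 (adjusted p = 0.298). Between days 7 and 3 it differed by -0.94 ± 1.02 (adjusted p = 0.558). None of these differences was called, but the fits did not pair the arrays of an animal, so changes within animals were not tested.

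CR1, the receptor for C3b on red cells and leukocytes, has no probe under that symbol, but 4 probes carry the name LOC718120, whose gene ID is that of CR1 in the RefSeq table. They were added after their values were seen and are not counted above. The brightest of them was 8.92 to 12.41 on 6 pre-irradiation arrays and 6.90 to 8.86 on 7 day 7 arrays, with no overlap, a log2 change of -2.29 ± 0.52 (adjusted p = 0.00523). Its spots were marked as outliers on 1 pre-irradiation, 3 day 3 and 3 day 5 arrays. The 2 other tested probes had day 7 changes of 0.27 and 0.22, so the probes disagree.

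Of 53 other complement genes, 41 had a probe and 25 were tested. At day 3, 8 were called (CLU, C1QC, C5AR2, FCN1, ITGAM and ITGB2 higher, C5 and CR2 lower), on day 5, 12 (9 rose and 3 fell) and on day 7, 2 (both higher). Of all probes tested 13.5, 16.7 and 10.9% were called on these days, so the day 7 count is no more than that share. Their median log2 change was 0.76, 0.38 and 0.11. Receptors were among those that rose. ITGAM and ITGB2, the chains of complement receptor 3, were higher on all 3 days, by 1.73 ± 0.30 and 1.46 ± 0.16 on day 3 and by 1.69 ± 0.31 (adjusted p = 0.00115) and 0.74 ± 0.15 (adjusted p = 0.00227) on day 7. C5AR2, the second receptor for C5a, rose by 2.16 ± 0.44 on day 3 (adjusted p = 0.00331), when C5AR1 was at -1.12.

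Among soluble proteins, C1QC, a chain of C1q, rose by 3.35 ± 0.56 on day 3 (adjusted p = 0.00120) and 2.07 ± 0.46 on day 5 (adjusted p = 0.00360), and was well above background on 4 of 7 pre-irradiation arrays. It is also on the list of tissue macrophage genes, of which 3, 2 and 1 of 6 tested were higher on the 3 days (against 13.5, 16.7 and 10.9% of all probes called, so that the day 7 count is near that share), and the part of such cells was not tested. PTX3, a pattern recognition protein that binds C1q, rose by 2.22 ± 0.30 on day 5 (adjusted p = 9.32e-05). CFHR4, a relative of factor H, was not well above background on any pre-irradiation array and was at least 5.09-fold higher on day 5 (adjusted p = 0.000863). It was well above background on 3 of 4 day 3 arrays and 1 of 7 day 7 arrays, and was not called on those days. C5 was not well above background on any array of days 3 and 5 and was at least 8.90-fold lower on day 3 (adjusted p = 0.00159) and at least 10.6-fold lower on day 5 (adjusted p = 0.000115).

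Clusterin (CLU), an inhibitor of the terminal complex, rose by 3.41 ± 0.46 on day 3 (adjusted p = 0.000411) and 2.13 ± 0.36 on day 5 (adjusted p = 0.000541). It is one of the platelet genes, whose mean log2 level was 9.94 to 11.41 before irradiation, 13.19 to 14.23 on day 3 and 11.31 to 12.54 on day 5. CR2, the receptor for C3d on B cells, was 2.89 ± 0.33 lower on day 3 (adjusted p = 0.000155), beside the 9 B cell genes, itself among them, that were lower. Its change was -1.92 on day 5 (called, adjusted p = 0.000645) and -0.90 on day 7 (adjusted p = 0.0936, not called), while the 8 other B cell genes were still called lower on day 7, the smallest change being the -2.78 of BLK. The part of these cells in either value was not tested.

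**Figure D5:**
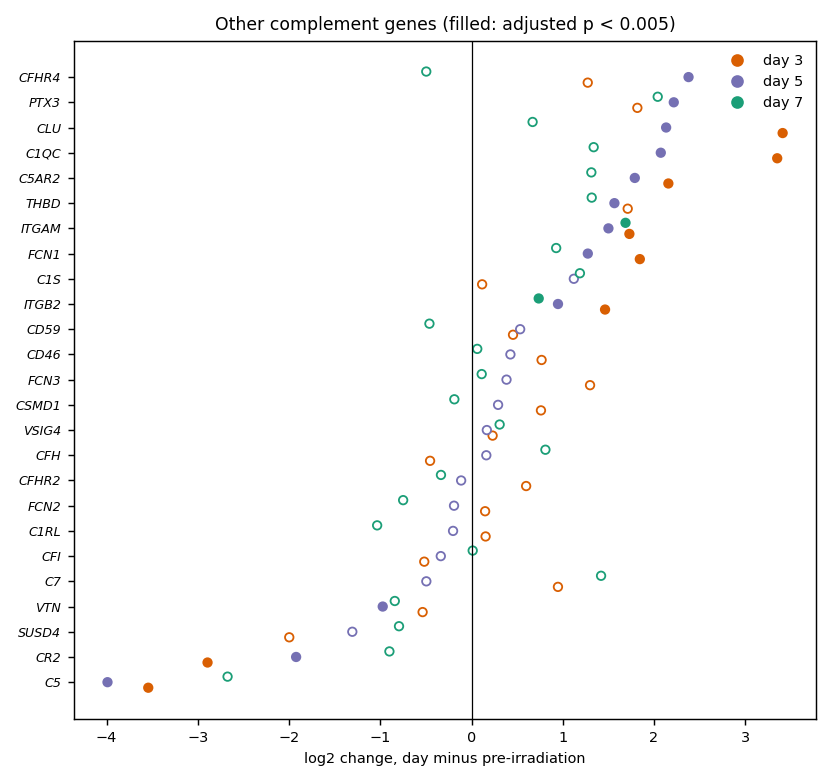
Log2 change (horizontal axis, day minus pre-irradiation) of the 25 other complement genes tested, ordered by their day 5 change, with 1 point per day, filled where the adjusted p was under 0.005. ITGAM and ITGB2 are filled on all 3 days, and C5 and CR2 lie at the lower end.

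The levels of the members among themselves went in different directions over the 24 arrays. Pearson r was 0.81 between C3AR1 and CFP, 0.66 between CFD and CFP and -0.62 between C3AR1 and C5AR1, while SERPING1 had r between -0.40 and 0.47 with the other 6. The genes most like SERPING1 were GFPT2, an enzyme of hexosamine synthesis (0.85), CABP5 (0.78) and SIK3 (0.77). Those most like CFD were S100A11, ARPC2 and TXNIP (0.84 to 0.85), those most like C3 were KLHL29, CBLN2 and SERPINB6 (0.77 to 0.82), and those most like CD55 were PLXNA4, EFNA3 and TESK1 (0.66 to 0.74). The arrays share animals and sessions, and these values are descriptions.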

How the data were processed

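Whole-blood RNA was hybridized to one-colour Agilent arrays. The labels name a rhesus array, as does the scanner output, and the methods name a human one. Per the submitters' processing notes the images were read with Agilent Feature Extraction 10.7, and the file headers name 12.0.2.2. The deposited scanner output holds a processed intensity, background-subtracted and detrended, and the authors' deposited series matrix holds log2 values normalized to the median array.

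Here log2 processed signals were taken, spots with a non-uniformity or population outlier mark dropped, replicate spots averaged, and each array shifted to the median array (shifts of -2.03 to 0.87). Tested were probes well above background on 4 or more of the 24 arrays, 27138 in all (27132 at day 3), with limma 3.58.1 in R 4.3.3, each comparison in a fit of its 2 groups, two-sided, with Benjamini-Hochberg adjustment. Gene symbols came from the scanner output for 23054 of 43603 probes, from gene IDs for 539 and from accessions for 682. Figures used Python 3.11.15 and matplotlib 3.10.9. Promoter motifs were not analysed here.

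Arrays of the same animal number were checked as pairs: the correlation of deviations from group means was 0.134 to 0.414 for day 3, 0.171 to 0.454 for day 5 and 0.132 to 0.439 for day 7 with pre-irradiation blood. The median for arrays of different numbers was -0.05, -0.08 and -0.05, so the numbers were taken to pair the arrays. Each day 7 array lay on the slide of its own animal's pre-irradiation array, so on day 7 animal and slide cannot be told apart. The fit was tested on simulated data. The genes and lists were chosen with earlier results of these data known. Named are all members, the 5 called other complement genes and 3 called interferon genes with the largest absolute log2 change per day, the 3 genes most correlated with each member, and defining cell markers. Alternatives covered scaling, background, filter, source of values, samples in the fit, blocks, threshold, probe choice and each replicate left out, and 2 were chosen after seeing the data: flagged spots kept and LOC718120 counted as a member.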

Additional observations from a re-analysis of the deposited data

Results flagged for a closer look

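SERPING1 at day 3 moved in opposite directions in the labelled sexes: the 1 female sampled, animal 7, was at -1.10 on the log2 scale against its own pre-irradiation level, while the 3 males, animals 1, 2 and 4, were above theirs. With 1 female the difference was not tested. The other females were above their own pre-irradiation levels on later days, animal 6 by 4.88 on day 5 and 1.20 on day 7 and animal 5 by 1.25 on day 7, so on the brightest probe the negative values were those of animal 7 alone. On the coding probe at position 1201, animal 7 was at 0.39 on day 5, against a pre-irradiation signal that was not well above background. Animal 1, a male, was at -0.31 on that probe on day 7.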

How the results depend on the processing

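The counts of members called against pre-irradiation blood (2, 3 and 1 on days 3, 5 and 7) moved with several choices. The counts of all probes called moved as well, from 3653, 4543 and 2951 in the main fits. A normexp background gave 1, 0 and 0 members, with 139, 239 and 315 of all probes called. The scan session as a block gave 0, 1 and 2, with 37, 383 and 2916 of all probes called. The slide as a block gave 0 on day 3, where 0 of all 27110 probes were called. With the replicate block (the animal) the member counts were 1 on day 3, 4 on day 5 and 2 on day 7. In these fits 760, 4202 and 2327 of all probes were called. An adjusted p under 0.05 gave 5 on day 3 and 2 on day 7, but the share of all probes under it was not counted, so these counts have no background beside them. The day 7 count was also 2 with the authors' normalized values, with the stricter filter on dim probes and with all groups in 1 fit, and the last 2 gave 3 on day 3, with C5AR1. Of all probes these settings called 2501 of 18497, 3006 of 21070 and 3885 of 27138 on day 7. On day 3 the last 2 called 3940 of 22406 and 4272 of 27132. Leaving out 1 replicate number at a time gave 1 to 3 genes on day 3, 2 to 4 on day 5 and 1 to 2 on day 7. Of all probes 863 to 3490, 2713 to 4293 and 1656 to 2576 were then called on the 3 days. Between days 7 and 3 the count of 0 became 1 (CFP) with all groups in 1 fit, where 2177 of all 27132 probes were called. It became 2 at an adjusted p under 0.05, where the share of all probes was again not counted. Keeping spots with outlier marks or counting LOC718120 as a member, both chosen after seeing the data, moved no count.

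The log2 changes that turned sign belonged to members not called on that day. C3 on day 3 was -0.036 with normexp. CD55 on day 3 was 0.025 with quantile normalization, 0.068 with normexp and 0.048 with the slide as a block, and ran from -0.28 to 0.21 when 1 replicate was left out. CFD was -0.14 on day 5 with the scan session as a block and 0.23 on day 7 with quantile normalization. The cause was not tested. The replicate block changed no other call of a member than those given above with each gene. Outside the leave-one-out fits, 205 values of single members kept direction and call, 14 lost a call, 10 gained one and 6 turned sign. Without a filter the median log2 change of all probes shifted to -0.25, -0.23 and -0.25 on the 3 days, and with normexp to 0.16 on day 5. C3 and the coding SERPING1 probes lie near background, which limits what their values can show. CD55 was not analysed with the authors' values.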
